A study of Arabidopsis thaliana with 4 samples.

Results

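The genes described here are nuclear genes of Arabidopsis thaliana for membrane traffic between the endomembrane compartments, the vacuole and the cell surface. They were chosen by a rule on names, which was set with earlier results of these data known. A gene entered if its symbol begins with 1 of the 8 family names PRA1, VPS, SYP, VAMP, RAB, SNX, EXO70 or SEC, with a number, letter or dot after it, and if a probe set is annotated to that gene and no other. This gave 30 of the 13217 named nuclear genes with such a probe set, namely 10 VPS genes, 10 SEC genes, 9 PRA1 genes and 1 RAB gene. The other 4 family names (SYP, VAMP, SNX and EXO70) gave no gene by this rule, so most syntaxins, vesicle SNAREs and sorting nexins are not described. Each of the 30 genes had 1 probe set, and all 30 probe set names end in the suffix that this array type gives to probe sets designed for a single transcript.

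By their annotated roles 28 of the 30 genes act in or near membrane traffic. The remaining 2, SECA2 and SECE1, code for parts of the Sec translocases that move proteins across membranes inside chloroplasts. They share only the letters of the name, stay in all counts and are described apart.

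The arrays hold whole seedlings of ecotype Columbia. In the treated group (2 arrays) seedlings grown for 15 days after germination were given GSH, the reduced form of the thiol tripeptide glutathione, for 72 hours, and in the control group (2 arrays) seedlings of the same ecotype and growth carry no treatment in their titles. The dose, and whether controls were kept for the same further time, are not given in the sources used here, so GSH and seedling age at harvest cannot be told apart. Replicates are biological by their titles, yet separate cultures are not named, so p-values measure the spread between these arrays only.

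Proteins leave the endoplasmic reticulum in vesicles with a COPII coat, pass the Golgi and the trans-Golgi network, and go on to the plasma membrane or, through multivesicular endosomes, to the vacuole. Rab GTPases mark each compartment, tethers such as the exocyst hold an arriving vesicle, and SNAREs fuse it under the guidance of Sec1/Munc18 (SM) proteins. The ESCRT complexes gather ubiquitin-tagged membrane proteins on endosomes and pinch them into internal vesicles, which the vacuole then degrades.

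Values are log2 expression values, so a difference of 1 is a doubling of signal. "Passed" means a Benjamini-Hochberg adjusted p under 0.05 with limma over all 22746 probe sets. Median log2 values of the arrays lay between 5.33 and 5.37. Arrays of the same group correlated at r = 0.998 across probe sets and arrays of different groups at 0.982, which describes the arrays and tests nothing. Of the 8 green tissue markers 4 were measured, which here means matched by name to a probe set annotated to 1 gene. They lay between 4.47 and 12.62 on treated arrays and between 4.74 and 12.82 on control arrays. RCA stood at 10.45 and 10.47 on treated arrays, against 10.70 and 10.69 on control arrays. The dimmest, LHCB4.3, lay below the median of all probe sets, at 4.60 and 4.47 on treated arrays and 4.74 and 4.76 on control arrays. On treated arrays 2 of the 4 passed as lower, beside 17.5% of all probe sets and 27.5% of those above the median level. For each of the 4 both treated values lay below both control values, as for 34.0% of all probe sets. The summed level of the 4 in log2 value stood at 13.07 and 13.16 on treated arrays, against 13.40 and 13.34 on control arrays. The 3 measured of 5 root markers lay between 3.85 and 4.38 on treated arrays and between 4.17 and 4.38 on control arrays. All 3 had means below the median of all probe sets, so root tissue was not marked by them on these arrays. None of the 3 passed. Whether the arrays hold root RNA was not tested. The 1 measured of 5 pollen markers, AGL66, lay between 3.67 and 3.80 on treated arrays and at 3.66 and 3.67 on control arrays, in the lowest 25% of all probe sets.

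Treated seedlings held more transcript of 14 of the 30 traffic genes (46.7%), and for none did the signal fall past the threshold. Over all probe sets 33.8% passed, 16.2% as higher and 17.5% as lower, against which these counts stand. The 14 were PRA1.A1, PRA1.B1, PRA1.B4, PRA1.E, PRA1.G2 and PRA1.H, the ESCRT genes VPS20.1, VPS22, VPS24.1, VPS60.1 and VPS60.2, and SEC1B, SEC6 and SEC22. Their sizes were modest. SEC1B at 2.42-fold was the single gene of the 30 at least 2-fold apart, beside 2.27% of all probe sets that passed as higher at that size. Of the 30 genes 5 passed and were at least 1.5-fold apart, all higher. Of all probe sets 6.33% passed as higher at that size and 6.01% as lower. At an unadjusted p under 0.05 in the same limma fit, 14 of the 30 were higher and 3 lower. Of all 22746 probe sets, 4612 were higher and 5124 lower at that level.

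The groups did not overlap for 24 of the 30 genes, with both treated arrays above both control arrays for 19 and below them for 5. In all probe sets 65.2% stood apart, 31.2% upward and 34.0% downward. The median log2 difference was 0.16 over the 30 genes and -0.01 over all probe sets. Calls depend on signal level, so the 22 genes whose mean lay above the median of all probe sets (5.37) were also read against probe sets of that range. All 14 calls were among these 22 genes (63.6%), while 54.9% of all probe sets in that range passed, 27.5% as higher and 27.5% as lower. The 8 dimmer genes, with single values between 3.36 and 5.04, gave no call, and none of them was shown to be above background. No test of the list was made, since its members were chosen with results of these data known.

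**Figure D1:**
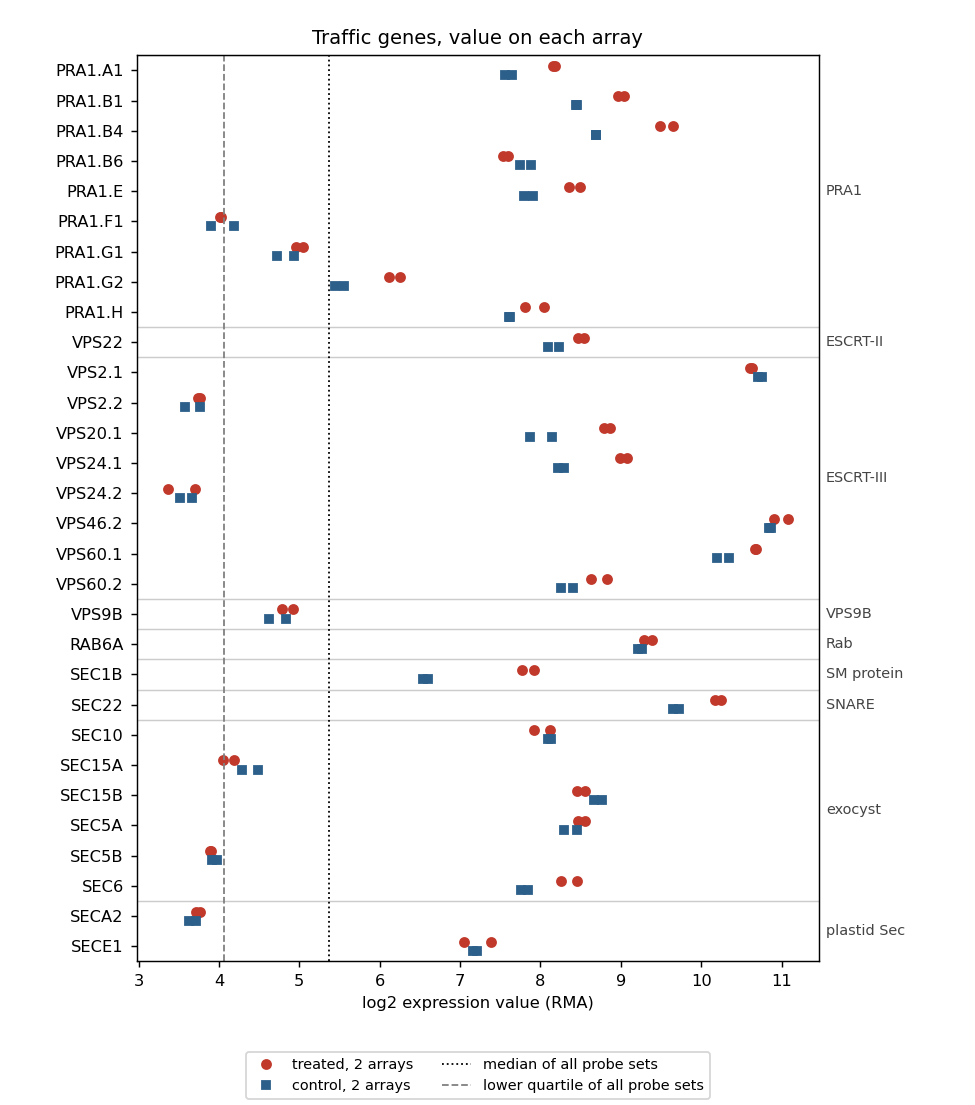
Log2 expression values (horizontal axis) of the 30 traffic genes, with treated arrays as circles above control arrays as squares in each row, and with the median and lower quartile of all probe sets as vertical lines. SEC1B shows the widest gap between the groups, at 7.77 and 7.92 on treated arrays against 6.60 and 6.54 on control arrays; levels of different genes come from different probes and are not comparable.

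Signals from whole seedlings do not tell apart more cells of a type from more RNA per cell. Added Bacillus transcripts, read by 27 probe sets as a control of labelling, had a median difference of -0.26, with 11 lower and none higher. The 18 probe sets for hybridization controls had a median difference of -0.16, with 4 lower and none higher. The probe set for 25S ribosomal RNA was lower by 2.97 ± 0.09 log2 units (difference -2.97, SE). That of 5S ribosomal RNA differed by 0.11 ± 0.07 (limma adjusted p = 0.28). The part of RNA handling in the values of the traffic genes was not tested. When each array was centred on its own median the same 14 genes passed as higher. The array medians already lay between 5.33 and 5.37, so centring moved the values little, and it is no test of RNA handling.

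The PRA1 family had 6 of its 9 members higher, none lower and 3 not passed, beside 16.2% of all probe sets higher, and 27.5% of those above the median level, where 7 of the 9 lie. PRA1 proteins (prenylated Rab acceptors) are small membrane proteins of the Golgi, endoplasmic reticulum and endosomes that bind Rab GTPases by their lipid tails. PRA1.B4 had values of 9.65 and 9.49 on treated arrays, against 8.69 and 8.69 on control arrays. It was the most raised of the family, by 0.88 ± 0.08 log2 units or 1.84-fold (SE, n = 2 per group, limma adjusted p = 0.000347). PRA1.B1, of the same clade by name, had 9.04 and 8.97 on treated arrays and 8.44 and 8.45 on control arrays, a rise of 0.56 ± 0.07 (limma adjusted p = 0.00134).

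The third measured gene of the B clade went the other way without passing. PRA1.B6 had 7.54 and 7.60 on treated arrays, against 7.75 and 7.88 on control arrays. Both treated values thus lay below both control values, with a difference of -0.25 ± 0.08 and a limma adjusted p of 0.0528. This gene passed as lower at the same size, -0.25, when the lowest 25% of probe sets were left out (limma adjusted p = 0.0424) or when the prior spread followed the signal level (0.0304), and at -0.28 after a second quantile normalization (0.0312).

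PRA1.G2 had 6.25 and 6.11 on treated arrays and 5.44 and 5.55 on control arrays. It rose by 0.68 ± 0.08 log2 units, or 1.61-fold (limma adjusted p = 0.00119). Its partner in the G clade, PRA1.G1, stood at 5.04 and 4.96 on treated arrays and 4.72 and 4.93 on control arrays, did not overlap between the groups and did not pass (0.18 ± 0.09). Whether the G clade genes differ from each other in response was not tested.

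PRA1.A1 had 8.18 and 8.16 on treated arrays, against 7.56 and 7.64 on control arrays, and PRA1.E had 8.49 and 8.35 on treated arrays, against 7.80 and 7.91 on control arrays. They rose by 0.57 ± 0.07 and 0.56 ± 0.08 log2 units, both 1.48-fold (limma adjusted p = 0.00127 and 0.00251). PRA1.H, at 7.81 and 8.04 on treated arrays and 7.62 and 7.61 on control arrays, rose by 0.31 ± 0.09 (limma adjusted p = 0.0408), the largest adjusted p of the 14. It did not pass without treated replicate 2 (0.20, limma adjusted p = 0.156), without control replicate 1 (0.32, 0.0957) or without control replicate 2 (0.31, 0.103), nor after a second quantile normalization (0.28, 0.0558). PRA1.F1 lay in the lowest 25% of probe sets, with 4.03 and 4.01 on treated arrays between control values of 3.90 and 4.19 (difference -0.02).

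**Figure D2:**
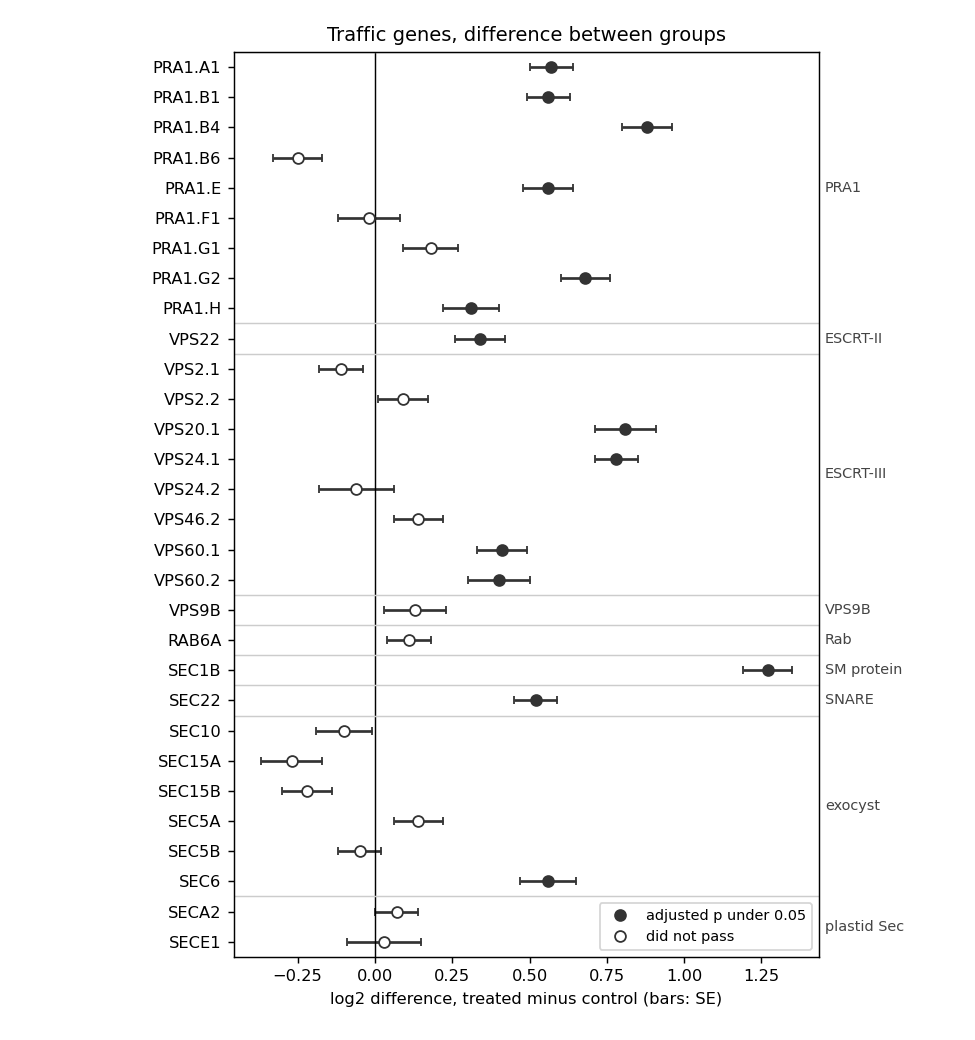
Log2 difference, treated minus control, for each traffic gene with its moderated standard error as a bar; filled points passed an adjusted p of 0.05 and open points did not. All 14 filled points lie to the right of 0, from 0.31 for PRA1.H to 1.27 for SEC1B, and the lowest open points are SEC15A at -0.27 and PRA1.B6 at -0.25.

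Of the 10 VPS genes, 5 were higher, none was lower and 5 did not pass, where 16.2% of all probe sets and 27.5% of those above the median level (7 of the 10 genes) were higher. Of the 10 genes, 9 belong to the ESCRT machinery. ESCRT-II links the cargo-binding complexes to ESCRT-III, whose subunits polymerise at the neck of a forming vesicle. VPS20.1, the subunit that in yeast starts the ESCRT-III polymer, had 8.79 and 8.86 on treated arrays, against 8.15 and 7.87 on control arrays. It rose by 0.81 ± 0.10 log2 units or 1.76-fold (SE, n = 2 per group, limma adjusted p = 0.00144), and its control arrays differed by more than those of most members. VPS24.1, which in yeast acts late in the polymer, had 9.08 and 8.99 on treated arrays and 8.22 and 8.29 on control arrays, a rise of 0.78 ± 0.07 or 1.71-fold (limma adjusted p = 0.000413). Among VPS genes these 2 were those at least 1.5-fold apart.

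The accessory subunit genes VPS60.1 and VPS60.2 both rose, and the difference between them was not tested. VPS60.1 had 10.67 and 10.68 on treated arrays and 10.34 and 10.20 on control arrays, and VPS60.2 had 8.63 and 8.83 on treated arrays and 8.41 and 8.26 on control arrays. Their rises were 0.41 ± 0.08 and 0.40 ± 0.10 log2 units, 1.32-fold for each (limma adjusted p = 0.00711 and 0.0194). VPS60.2 did not pass without control replicate 2 (0.32, limma adjusted p = 0.0796) or without treated replicate 2 (0.30, 0.0882). VPS22, a core subunit of ESCRT-II, had 8.54 and 8.47 on treated arrays, against 8.10 and 8.23 on control arrays. It rose by 0.34 ± 0.08 or 1.27-fold (limma adjusted p = 0.0149), and did not pass without control replicate 1 (0.28, 0.0831) or without treated replicate 1 (0.31, 0.0691).

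Other ESCRT-III genes with clear signals did not pass. VPS2.1, whose protein caps the polymer together with VPS24, had 10.63 and 10.61 on treated arrays and 10.76 and 10.71 on control arrays, a difference of -0.11 ± 0.07 without overlap (limma adjusted p = 0.268). VPS46.2, also known as CHMP1A and needed in Arabidopsis for sorting auxin carriers into endosomal vesicles, had 11.08 and 10.91 on treated arrays and 10.85 and 10.87 on control arrays (0.14 ± 0.08, limma adjusted p = 0.254). VPS2.1 and VPS24.1 therefore differ in call although their proteins act side by side, but the difference between them was not tested.

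Second copies of these subunits were dim. VPS2.2 (3.74 and 3.77 on treated arrays, 3.58 and 3.76 on control arrays) and VPS24.2 (3.70 and 3.36 on treated arrays, 3.51 and 3.66 on control arrays) lay in the lowest 25% of probe sets with overlapping groups, so that their values give no information on a response. VPS9B, a homologue of the VPS9A protein that activates Rab5-type GTPases, had 4.92 and 4.79 on treated arrays and 4.62 and 4.83 on control arrays and did not pass (0.13 ± 0.10).

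The 10 SEC genes belong to several machines, and 3 of them rose, none fell past the threshold and 7 did not pass. This is 30.0% of the genes, beside 16.2% of all probe sets and 27.5% of those above the median level, where 7 of the 10 lie. SEC1B codes for an SM protein, which binds syntaxins and guides SNARE assembly. It had 7.77 and 7.92 on treated arrays, against 6.60 and 6.54 on control arrays, the widest gap among the 30 genes. The rise was 1.27 ± 0.08 log2 units, or 2.42-fold (SE, n = 2 per group, limma adjusted p = 8.82e-05), and over all alternatives the difference stayed between 1.20 and 1.35. SEC22, a SNARE of traffic between the endoplasmic reticulum and the Golgi, had 10.25 and 10.17 on treated arrays and 9.65 and 9.73 on control arrays, a rise of 0.52 ± 0.07 or 1.43-fold (limma adjusted p = 0.00227).

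Of the 6 exocyst genes, 1 rose and 5 did not pass, a share of 16.7% higher. Beside it stand 16.2% of all probe sets and 27.5% of those above the median level, where 4 of the 6 lie. The exocyst tethers secretory vesicles to the plasma membrane. SEC6 had 8.46 and 8.26 on treated arrays and 7.85 and 7.76 on control arrays, with a rise of 0.56 ± 0.09 or 1.47-fold (limma adjusted p = 0.00369). SEC10, with 7.92 and 8.12 on treated arrays and 8.13 and 8.10 on control arrays, overlapped between the groups (-0.10 ± 0.09), and SEC5A, with 8.47 and 8.56 on treated arrays and 8.46 and 8.29 on control arrays, stood at 0.14 ± 0.08.

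The SEC15 subunits link the exocyst to Rab GTPases in yeast and animals, and both their genes lay lower on treated arrays without passing. SEC15B had 8.55 and 8.45 on treated arrays, against 8.77 and 8.67 on control arrays (-0.22 ± 0.08, limma adjusted p = 0.0767). SEC15A had 4.19 and 4.05 on treated arrays, against 4.49 and 4.29 on control arrays (-0.27 ± 0.10, limma adjusted p = 0.0767), below the median of all probe sets. SEC15B passed as lower after a second quantile normalization (-0.25, limma adjusted p = 0.0434) and with a prior that follows signal level (-0.22, 0.029), and SEC15A passed without control replicate 2 (-0.37, 0.0389). SEC5B, at 3.89 and 3.90 on treated arrays and 3.91 and 3.98 on control arrays, lay in the lowest 25% of probe sets.

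The single RAB gene, RAB6A, codes for a Golgi GTPase of the Rab6 class also named RABH1B. It had 9.39 and 9.29 on treated arrays, against 9.21 and 9.26 on control arrays, a difference of 0.11 ± 0.07 that did not pass (limma adjusted p = 0.323). Neither chloroplast gene passed. SECE1, for a subunit of the thylakoid translocase, had 7.38 and 7.05 on treated arrays on either side of 7.16 and 7.21 on control arrays (0.03 ± 0.12). SECA2, for the motor of another chloroplast translocase, had 3.72 and 3.77 on treated arrays and 3.71 and 3.63 on control arrays, in the lowest 25% of probe sets. Without these 2 genes, 14 of 28 were higher and the median difference was 0.25.

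**Figure D3:**
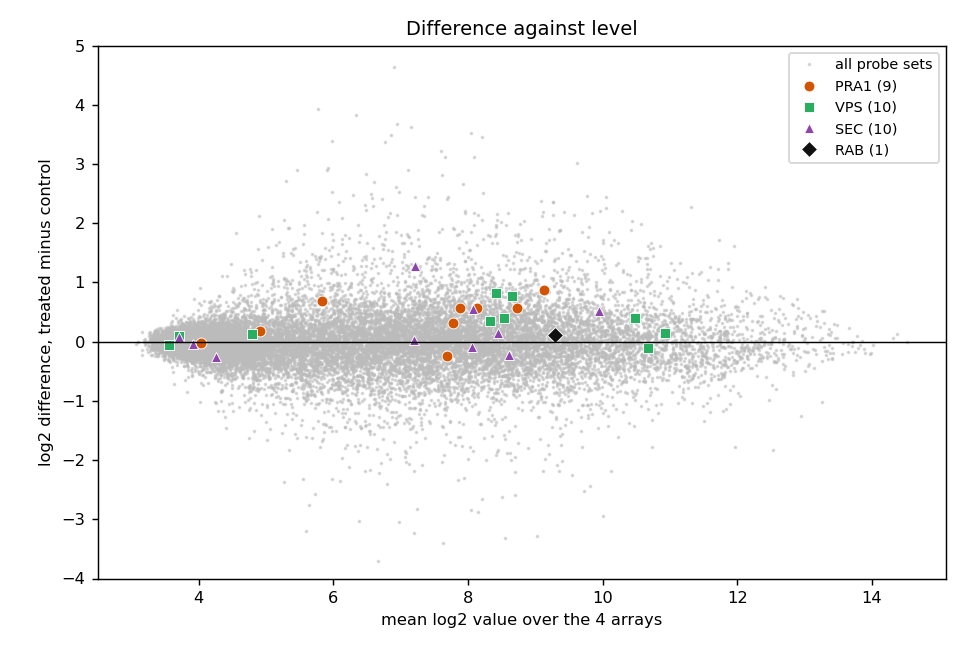
Log2 difference, treated minus control (vertical axis), against the mean log2 value over the 4 arrays (horizontal axis) for all probe sets in grey and the traffic genes by family. The members lie within the cloud of all probe sets, and those with a mean under 5.37 lie between -0.27 and 0.18.

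Relatives of these families that RefSeq lists under another symbol, 12 in all, were picked after the files had been seen, by their synonyms and not by their values. Of these, 9 rose, none fell and 3 did not pass, with a median difference of 0.33. Above the median level, where 10 of the 12 lie, 27.5% of all probe sets were higher and 27.5% lower. Further ESCRT genes were among them. SNF7.2 and SNF7.1, both for the VPS32 subunit that makes up most of the ESCRT-III polymer, rose by 0.51 ± 0.08 and 0.31 ± 0.08 log2 units (limma adjusted p = 0.00246 and 0.0212). AT5G04920, for VPS36 of ESCRT-II, had 8.36 and 8.03 on treated arrays and 7.73 and 7.69 on control arrays (0.49 ± 0.11, limma adjusted p = 0.0172). AT2G36680, for VPS37-2 of ESCRT-I, rose by 0.50 ± 0.08 (limma adjusted p = 0.00357).

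Scaling and single arrays changed the call of ELC, the gene of the ESCRT-I subunit that recognises ubiquitin. It had 10.51 and 10.53 on treated arrays, against 10.75 and 10.75 on control arrays, and fell (-0.24 ± 0.07, limma adjusted p = 0.036), but it did not pass with arrays centred on their medians (-0.21, 0.0548) or without any 1 of the 4 arrays (0.0919 to 0.139). SNF7.1 did not pass without control replicate 2 (0.26, limma adjusted p = 0.115) or treated replicate 2 (0.27, 0.0933). Over the 14 ESCRT genes measured, inside and outside the name rule, 9 rose, 1 fell and 4 did not pass, with a median difference of 0.37, and 12 of the 14 lie above the median level, where 27.5% of all probe sets were higher and 27.5% lower.

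Among the other relatives, AT3G63460, for the COPII coat protein SEC31B, had 7.65 and 7.82 on treated arrays and 6.89 and 6.97 on control arrays, the largest rise of these 12 (0.80 ± 0.09, limma adjusted p = 0.000669). AT1G18830, for SEC31A, passed too (0.24 ± 0.07) but lay in the lowest 25% of probe sets and did not pass without any 1 of the arrays (limma adjusted p from 0.0942 to 0.134). ARA6, a plant-specific Rab5-type GTPase of endosomes, rose by 0.41 ± 0.07 (limma adjusted p = 0.00472), PRA7 by 0.33 ± 0.07 (limma adjusted p = 0.0125) and the dim ATSYP24 by 0.32 ± 0.07 (limma adjusted p = 0.0128). PRA7 did not pass without control replicate 2 (0.29, limma adjusted p = 0.0753) or treated replicate 2 (0.32, 0.0534), nor ATSYP24 without control replicate 1 (0.29, 0.071) or treated replicate 1 (0.30, 0.0557). PRA8 (0.01 ± 0.07), the SNARE AtSec20 (-0.22 ± 0.08) and KEU did not pass. However, AtSec20 passed as lower after a second quantile normalization (-0.26, limma adjusted p = 0.0453) and with a prior that follows signal level (-0.22, 0.0332). KEU codes for KEULE, the SM protein of cell division and a relative of SEC1B, and had 9.44 and 9.46 on treated arrays and 9.49 and 9.37 on control arrays (0.02 ± 0.08). The difference between SEC1B and KEU in response was not tested.

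Wider lists of traffic and vacuole genes, 149 entries in 7 lists, were covered thinly. There were 19 measured entries, 1 of them VPS46.2, and 2 of the others are ARA6 and KEU described above. No entry for ARF GTPases and their partners or for phosphoinositide enzymes matched by name a probe set annotated to 1 gene. This does not show that the array lacks these genes, since 8730 of the 22746 probe sets carried no gene in the annotation used and 503 carried several. Of the 18 measured entries that are not members, 8 were higher, 3 lower and 7 did not pass. Over all probe sets 16.2% were higher and 17.5% lower, and above the median level 27.5% passed in each direction. Of 3 adaptor genes, TPLATE, of an endocytic adaptor complex, rose by 0.46 ± 0.08 log2 units and AT5G46630, for the AP-2 medium subunit, by 0.27 ± 0.08 (limma adjusted p = 0.00517 and 0.0335), while AT4G24550 of AP-4 stood at 0.10 ± 0.07. The SNARE genes YKT61 (0.38 ± 0.08) and ATYKT62 (0.44 ± 0.08) rose, as did EXO84B of the exocyst (0.31 ± 0.08, limma adjusted p = 0.0293). Without control replicate 2 neither YKT61 (0.32, limma adjusted p = 0.0505) nor EXO84B (0.26, 0.127) nor AT5G46630 (0.26, 0.116) passed, without treated replicate 2 neither EXO84B (0.23, 0.127) nor AT5G46630 (0.21, 0.14), and AT5G46630 also failed without control replicate 1 (0.28, 0.098). AT1G16020 and AT2G28390, for the CCZ1a and MON1 proteins that together activate Rab7 on late endosomes, stood at -0.10 ± 0.09 and -0.07 ± 0.10 and did not pass.

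Of 7 genes for vacuolar enzymes and the proton pump 2 were higher, 2 lower and 3 not passed, and 5 of the 7 lie above the median level, where 27.5% of all probe sets passed in each direction. ALPHA-VPE, for a vacuolar processing enzyme that matures vacuolar proteins, had 6.36 and 6.25 on treated arrays, against 5.28 and 5.41 on control arrays (0.96 ± 0.08, or 1.94-fold, limma adjusted p = 0.000274). GAMMA-VPE, another enzyme of that family in vegetative tissue, fell to 11.53 and 11.49 on treated arrays, against 12.06 and 12.10 on control arrays (-0.57 ± 0.07, limma adjusted p = 0.00115). BETA-VPE (0.07 ± 0.09) and DELTA-VPE (0.14 ± 0.08) lay below the median level and did not pass. Isoforms of subunit a of the proton pump also differed in direction. VHA-A1, the isoform of the trans-Golgi network, rose by 0.40 ± 0.10 (limma adjusted p = 0.0217), VHA-A2 of the vacuolar membrane fell (-0.42 ± 0.08, limma adjusted p = 0.00879), and VHA-A3 of the same membrane stood at -0.03 ± 0.08. VHA-A1 did not pass without control replicate 1 (0.30, limma adjusted p = 0.0921) or treated replicate 1 (0.31, 0.102).

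**Figure D4:**
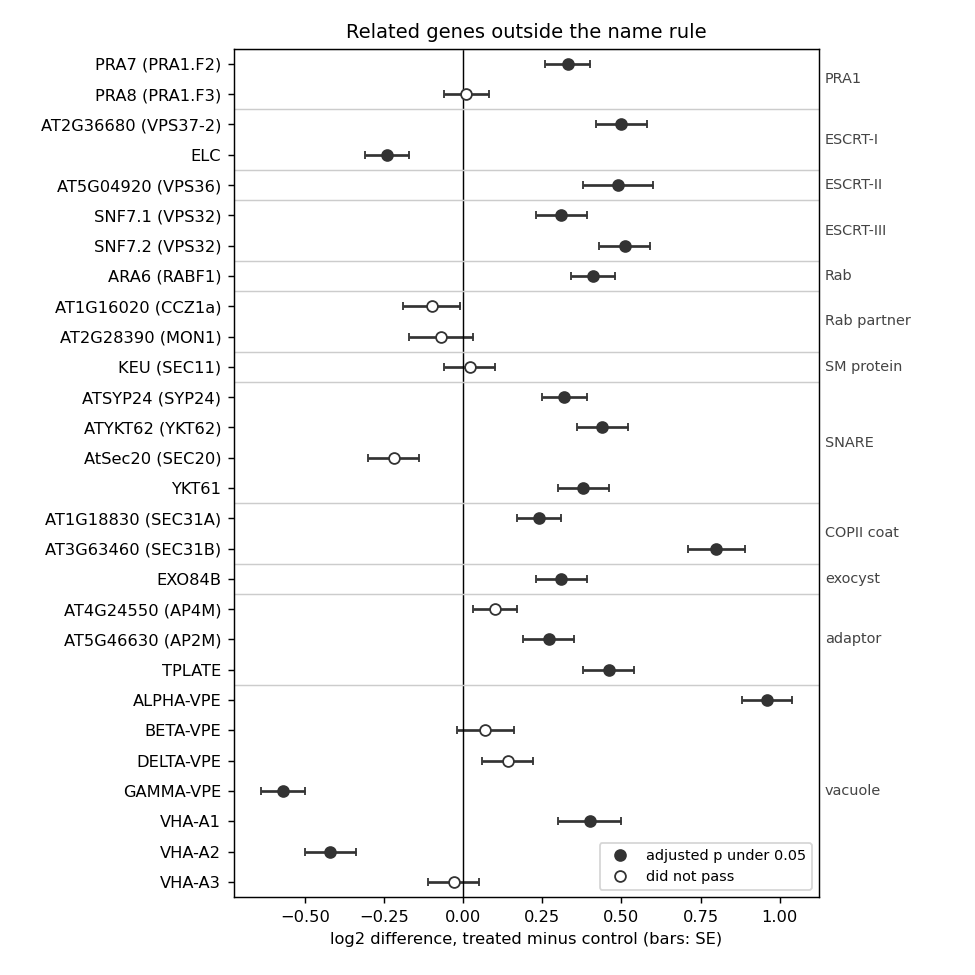
Log2 difference, treated minus control, with moderated standard errors, for 28 related genes outside the name rule; filled points passed an adjusted p of 0.05. Here 16 genes rose, 3 fell (GAMMA-VPE, VHA-A2 and ELC, the last not with arrays centred on their medians) and 9 did not pass. Differences ran from -0.57 for GAMMA-VPE to 0.96 for ALPHA-VPE. Over all probe sets 16.2% were higher and 17.5% lower. Above the median level, where 22 of the 28 genes lie, 27.5% were higher and 27.5% lower.

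The calls rest on the spread that limma shares across probe sets. Without that moderation 0 of the 30 genes passed, with adjusted p-values from 0.0536 to 0.258 for the 14. In that fit 12 of the 14 had an unadjusted p under 0.05, and none of the 30 was lower at that level. Among all 22746 probe sets, 3530 were higher and 3693 lower at that level. Under the 10 other alternatives each of 11 genes passed every time, with differences from 0.34 to 1.35, and PRA1.H, VPS22 and VPS60.2 did not. Of the 19 calls among related genes, 10 held under those 10 alternatives and 3 without moderation.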

How the data were processed

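The deposited log2 values come from RMA in Affymetrix Expression Console, per the submitters' processing notes; versions are not given in the sources used here. RMA includes quantile normalization, which would hide a change shared by most transcripts. Of 22810 probe sets, 64 controls were left out of the tests. Symbols came from the platform annotation, updated by gene ID to RefSeq (TAIR10.1): of 22746 probe sets 13513 carried 1 gene (13436 matched), 503 several and 8730 none in that table. The value of a gene is that of its probe set with the highest mean.

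The comparison used lmFit and eBayes of limma 3.58.1 (R 4.3.3; 2 residual and 4.55 prior degrees of freedom). P-values were adjusted by Benjamini-Hochberg over the whole table, and the fit was tested on simulated data. Errors are moderated standard errors. The few arrays limit precision, and no detection calls were used. Full values are given for up to 24 called members with the largest difference, the highest-level member of each family, the 6 bright members nearest to 0, and, by choice after their values were seen, the rest. In each related list up to 4 genes with the smallest unadjusted p were named. CHC1 and SLY1 matched other genes of the same symbol and were left out. Members, lists and tests were chosen with earlier results of these data known. Alternatives were other scalings, a filter on low values, other spreads, blocks by replicate number and leaving out each array. Promoters and proteins were not analysed here.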

Additional observations from a re-analysis of the deposited data

How the results depend on the processing

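Limma calls over all probe sets numbered 7680, and 1425 without moderation of the spread, where 0 members were higher, and so 0 in the PRA1, VPS and SEC families. With a 1.5-fold difference required as well, 5 members were higher, 2 of PRA1, 2 of VPS and 1 of SEC. Members lower, 0 in the fit as reported (3 at an unadjusted p under 0.05), numbered 2 after a second quantile normalization and 2 with an intensity trend in the prior (1 PRA1 and 1 SEC each time), and 1 (PRA1) without the lowest 25% of probe sets. Leaving out 1 array gave 6186 to 6248 calls, 12 to 13 members higher and 0 to 1 lower, the 1 being a SEC gene. With 1 array left out at a time, directions turned for 5 members that did not pass. Differences then ran from -0.167 to 0.12 for PRA1.F1, from -0.196 to 0.003 for SEC10, from -0.138 to 0.198 for SECE1, from -0.001 to 0.182 for VPS2.2 and from -0.228 to 0.112 for VPS24.2. The causes were not tested. The replicate number as a block gave 6235 calls and 12 members higher, PRA1.H (adjusted p = 0.0709) and VPS60.2 (0.062) being lost, and among related genes SNF7.1 (0.0603), ELC (0.0797), EXO84B (0.0766), AT5G46630 (0.0716), VHA-A1 (0.0681) and AT1G18830 (0.0767). Deviations of same-numbered arrays correlated at -0.10 across probe sets, and the crossed pairing, added after seeing the data, gave 6898 calls and 13 members higher (PRA1.H lost). Neither shows that numbers pair the arrays. Counting every probe set changed nothing, since each member had 1. Leaving out an array left 1 array in a group, assumed to vary like the other group. Signal over background limits the 8 dim members, which gave no call.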

Other observations

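Some traffic genes share a probe set with another gene and entered no count. The probe set for SEC3A and SEC3B, exocyst subunits that mark sites of secretion, had 9.17 and 9.04 on treated arrays, against 8.87 and 8.69 on control arrays (0.33 ± 0.09 log2 units, SE, n = 2 per group, limma adjusted p = 0.0334). It passed as higher, while 5 of the 6 exocyst genes with a probe set of their own among the members did not pass. The probe sets for PRA1.F4 and AT3G13700 disagreed. One had 7.24 and 7.33 on treated arrays and 7.28 and 7.28 on control arrays (0.01 ± 0.07), and the other, below the median of all probe sets, had 4.79 and 4.68 on treated arrays and 5.30 and 4.96 on control arrays and passed as lower (-0.39 ± 0.12, limma adjusted p = 0.0468). The alternatives were not run for these shared probe sets.

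SEC without a suffix is the gene SECRET AGENT, for an enzyme that attaches N-acetylglucosamine to proteins, and is outside the name rule. It had 8.14 and 8.51 on treated arrays, on either side of 8.37 and 8.31 on control arrays (-0.02 ± 0.12).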
